A study of Mus musculus with 64 samples.

Results

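Glo1, Dnah8 and Btbd9 are neighbouring genes of mouse chromosome 17 and lie at a locus that has been described as duplicated in A/J and some other inbred strains. They were taken by gene symbol from the table of hippocampal gene counts and make up 3 of its 32227 genes. They were chosen by their measured levels in these same libraries, which step between strains, so their strain values are given as a description, with no test. DNA copy number was not measured in the libraries analysed here.

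The hippocampus was profiled by bulk RNA sequencing in 8 inbred strains, with 4 libraries from females and 4 from males of every strain, 64 in all. The strains were A/J, 129S1/SvImJ, CAST/EiJ, NOD/ShiLtJ, NZO/HlLtJ, PWK/PhJ, WSB/EiJ and C57BL/6J, which are the parents of the Diversity Outbred and Collaborative Cross mice. No treatment, engineered allele or age is given in the labels, and whether each library came from a separate animal is not stated, so p-values measure the spread between these libraries. CAST/EiJ, PWK/PhJ and WSB/EiJ are wild-derived, NOD/ShiLtJ and NZO/HlLtJ are used as models of diabetes, and C57BL/6J, the strain of the mouse reference genome, served as the baseline of every ratio.

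Glo1 encodes glyoxalase 1, a cytosolic enzyme that acts on the adduct of glutathione with methylglyoxal, a reactive by-product of glycolysis. Glyoxalase 2, encoded by Hagh, then releases lactate and frees the glutathione. In mouse brain, Glo1 level has been tied to anxiety-like behaviour, and methylglyoxal is known to act on GABA-A receptors. Dnah8 encodes a heavy chain of axonemal dynein, the motor of motile cilia and sperm tails, and Btbd9 encodes a BTB-domain protein that serves as an adaptor of the Cullin-3 ubiquitin ligase and lies at a locus linked to restless legs syndrome in humans.

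The order of the genes along the chromosome, from GENCODE M21, was Btbd9, Glo1 and Dnah8, followed by Glp1r and Umodl1. Glo1 and Btbd9 lie on the minus strand and Dnah8 on the plus strand, so the starts of Glo1 and Dnah8 face away from each other. The 250 bases before the start are shown for Glo1 and Dnah8, the 2 members with such a sequence in the reference used, which held none for Btbd9. They are given 5′ to 3′ on the strand of the gene, from RefSeq on GRCm38.p6, with motif matches in capitals. The Glo1 window is chr17:30612660-30612909 on the minus strand, and the Dnah8 window is chr17:30626686-30626935 on the plus strand.
Glo1 promoter: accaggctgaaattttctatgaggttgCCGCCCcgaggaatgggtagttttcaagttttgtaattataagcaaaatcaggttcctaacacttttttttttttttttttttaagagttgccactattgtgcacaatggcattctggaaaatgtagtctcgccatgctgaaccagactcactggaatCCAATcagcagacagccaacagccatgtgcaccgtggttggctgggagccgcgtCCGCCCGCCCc
Dnah8 promoter: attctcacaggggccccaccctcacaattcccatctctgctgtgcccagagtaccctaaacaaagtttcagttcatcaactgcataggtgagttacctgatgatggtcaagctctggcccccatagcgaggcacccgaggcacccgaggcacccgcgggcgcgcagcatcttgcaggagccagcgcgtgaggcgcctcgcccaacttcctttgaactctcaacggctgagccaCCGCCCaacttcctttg

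The motifs searched on both strands were the GC box GGGCGG, the CCAAT box CCAAT and TGACNNNGC, the core of the antioxidant response element. The Glo1 window held 3 GC boxes on the opposite strand, of which a pair overlapped, and 1 CCAAT box. The Dnah8 window held 1 GC box. Neither window held the letters TGACNNNGC. Among 32851 promoters of the same length, 32.7% held a GC box, 33.8% a CCAAT box and 10.2% the antioxidant core. These matches are a description of the reference sequence only.

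Library totals ran from 16607602 to 27759221 counts, and every library was nearest in expression to another library of its own strain. The lowest mean correlation with its own group was 0.980 in A/J male 2, followed by 0.981 in 129S1/SvImJ female 1. These and C57BL/6J male 4 (0.985) are the 3 libraries called below those that stand apart. A/J male 4 had a lower value (0.984) and is not among them, so the choice does not follow this ranking alone. The median log2 ratio over all 17382 genes tested was between -0.00277 and 0.0124 for the 7 strains against C57BL/6J. Summed levels of 10 hippocampal neuron markers were between 790.3 and 1763 CPM (a gene's counts scaled to a fixed library total, with TMM factors) in the 64 libraries. Summed levels of 8 choroid plexus markers, among them Ttr, ran up to 4822 CPM, and those of 6 ependymal markers from 17.3 to 83.5 CPM.

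Glo1 was highest in A/J, stood at an intermediate level in CAST/EiJ and 129S1/SvImJ, and was low in the other 5 strains. In A/J the lowest, median and highest library had 373.7, 383.7 and 413.9 CPM. CAST/EiJ had 238.9, 253.4 and 274.1 CPM, and 129S1/SvImJ had 234.7, 247.8 and 300.3 CPM. C57BL/6J had 122.5, 129.1 and 141.4 CPM. The A/J libraries did not overlap those of any other strain, the CAST/EiJ and 129S1/SvImJ libraries overlapped each other, and neither overlapped C57BL/6J. Each Glo1 value rests on 1917 to 10091 counts per library.

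The means were 387 ± 13.8 CPM in A/J, 255 ± 11 CPM in CAST/EiJ, 254 ± 21.2 CPM in 129S1/SvImJ and 131 ± 6.16 CPM in C57BL/6J (SD, n = 8 each). From the edgeR fit, Glo1 was 2.95 times the C57BL/6J level in A/J (95% interval 2.81 to 3.1). The ratio was 1.95 in CAST/EiJ (1.86 to 2.04) and 1.94 in 129S1/SvImJ (1.85 to 2.03). Of all genes tested, the share that differed from C57BL/6J by at least 1.5-fold at an adjusted p under 0.05 was 8.65% for A/J, 7.9% for 129S1/SvImJ and 20.2% for CAST/EiJ, and nothing is read from these shares for Glo1, whose strain levels chose it. The A/J mean was 1.52 times that of CAST/EiJ and also 1.52 times that of 129S1/SvImJ. These levels therefore formed 3 steps, and the spread within each step was small, with an SD within groups of 0.0637 on the log2 scale over all 64 libraries.

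The lowest step was itself not flat. PWK/PhJ had a mean of 122 ± 4.38 CPM, WSB/EiJ 113 ± 4.1 CPM, NZO/HlLtJ 112 ± 5.0 CPM and NOD/ShiLtJ 102 ± 3.71 CPM. Relative to C57BL/6J the ratios were 0.93 in PWK/PhJ, 0.863 in WSB/EiJ, 0.856 in NZO/HlLtJ and 0.776 in NOD/ShiLtJ (0.74 to 0.813). In the order of means, C57BL/6J overlapped PWK/PhJ, PWK/PhJ overlapped WSB/EiJ and WSB/EiJ overlapped NZO/HlLtJ. NOD/ShiLtJ lay apart, with all 8 libraries (95.5 to 105.7 CPM) below every NZO/HlLtJ library (107 to 121.5 CPM). All 8 libraries of WSB/EiJ, NZO/HlLtJ and NOD/ShiLtJ, and 5 of 8 of PWK/PhJ, lay below every C57BL/6J library.

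**Figure D1:**
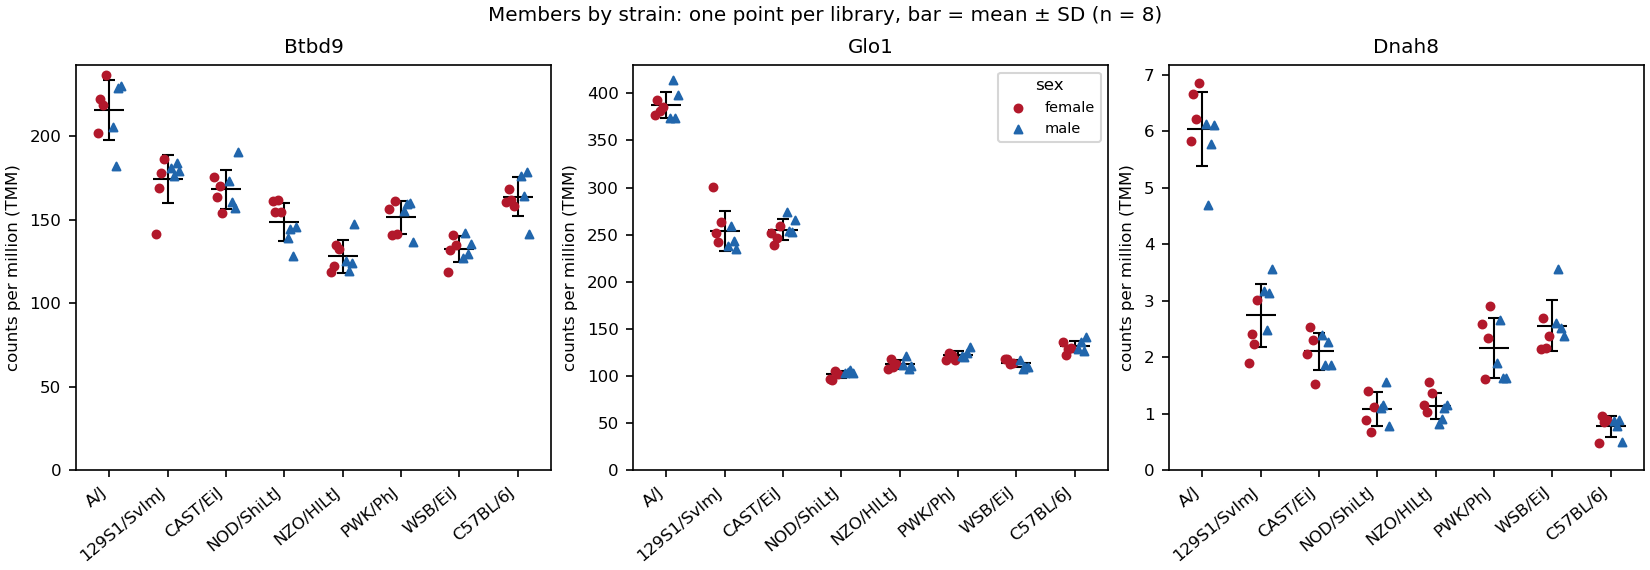
Level of Btbd9, Glo1 and Dnah8 in CPM (vertical axes, TMM scaled) in each library, by strain, with females as red circles and males as blue triangles. Bars mark the mean and SD of 8 libraries. Glo1 shows 3 levels, with A/J at 373.7 to 413.9 CPM, 129S1/SvImJ and CAST/EiJ at 234.7 to 300.3 CPM and the other strains at 95.5 to 141.4 CPM, while Btbd9 overlaps between neighbouring strains.

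Dnah8 was expressed at a low level, with 9 to 156 counts per library, and it was also highest in A/J. The lowest, median and highest A/J library had 4.69, 6.13 and 6.85 CPM. In 129S1/SvImJ these were 1.9, 2.75 and 3.56 CPM, and in CAST/EiJ 1.53, 2.17 and 2.53 CPM. C57BL/6J had 0.482, 0.863 and 0.963 CPM. A/J did not overlap any other strain, and all 8 libraries of 129S1/SvImJ, CAST/EiJ, PWK/PhJ and WSB/EiJ lay above every C57BL/6J library.

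The order of strains differed from that of Glo1. Dnah8 was 7.65 times the C57BL/6J level in A/J (95% interval 6.26 to 9.35), 3.45 times in 129S1/SvImJ and 2.67 times in CAST/EiJ. WSB/EiJ and PWK/PhJ, which had Glo1 below the C57BL/6J mean, had Dnah8 at 3.24 (2.63 to 3.99) and 2.75 (2.22 to 3.4) times that of C57BL/6J. NZO/HlLtJ and NOD/ShiLtJ had ratios of 1.43 (1.14 to 1.8) and 1.37 (1.09 to 1.72). For Dnah8, C57BL/6J was thus the lowest strain, and below A/J each strain overlapped the next in the order of means. The Dnah8 level of A/J was 2.21 times that of 129S1/SvImJ and 2.87 times that of CAST/EiJ, where the matching Glo1 ratio was 1.52 in both cases.

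Axonemal dyneins are made by ciliated ependymal cells, and the markers of those cells also varied. The median summed level of the 6 ependymal markers (Foxj1, Ccdc153, Tmem212, Rsph1, Rarres2 and Mia, none at 0 in all libraries) was 40.1 CPM in A/J, 25.2 in 129S1/SvImJ, 63.6 in CAST/EiJ and 27.4 in C57BL/6J. In 129S1/SvImJ, Dnah8 was 3.45-fold above C57BL/6J while this sum ran from 20.2 to 32.5 CPM, against 17.3 to 38.6 CPM in C57BL/6J. In CAST/EiJ, where the sum was highest (42.4 to 83.5 CPM), Dnah8 was lower than in A/J (26.4 to 53.3 CPM). In PWK/PhJ and WSB/EiJ, where Dnah8 was 2.75 and 3.24 times the C57BL/6J level, the median sum was 42.64 and 42.75 CPM. In NOD/ShiLtJ and NZO/HlLtJ the median sum was 36.77 and 38.57 CPM, with Dnah8 at 1.37 and 1.43 times. The markers did not move together: in CAST/EiJ, Rsph1, itself a gene near Glo1, was 6.78-fold higher and Mia was at 0.313 of C57BL/6J. The part of ependymal cells in the Dnah8 levels was not tested, and in bulk tissue fewer cells of a type and less RNA per cell cannot be told apart.

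Btbd9, whose start lies next to Glo1, varied over a narrower range. The lowest, median and highest A/J library had 182.4, 220.4 and 236.6 CPM. In 129S1/SvImJ these were 141.6, 178.8 and 186.4 CPM, and in CAST/EiJ 154.0, 166.9 and 190.7 CPM. C57BL/6J had 141.5, 162.8 and 178.8 CPM. All 8 A/J libraries lay above every C57BL/6J library, which was so for 4 of 8 libraries of 129S1/SvImJ and 1 of 8 of CAST/EiJ, and every strain overlapped the next in the order of means.

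The Btbd9 level in A/J was 1.32 times that of C57BL/6J (95% interval 1.23 to 1.42). The ratios in 129S1/SvImJ (1.07, 0.991 to 1.14) and CAST/EiJ (1.03, 0.956 to 1.1) had intervals that included 1. The lowest levels were in NZO/HlLtJ (0.782, 0.727 to 0.84) and WSB/EiJ (0.81, 0.753 to 0.87), with 7 of 8 libraries of each below every C57BL/6J library. PWK/PhJ and NOD/ShiLtJ had ratios of 0.925 and 0.907. Across the 8 strain means, Btbd9 followed Glo1 with a Pearson r of 0.885 and Dnah8 with r = 0.754, on log2 CPM. Within groups the relation ran the other way, with r = -0.463 for Btbd9 and -0.516 for Dnah8 over the deviations of the 64 libraries from their group means, which share depth and scaling. In 129S1/SvImJ, female 1 had the highest Glo1 (300.3 CPM) and the lowest Btbd9 (141.6 CPM) and Dnah8 (1.9 CPM) of the strain. The same held in A/J male 2 (413.9, 182.4 and 4.69 CPM). C57BL/6J male 4 had the highest Glo1 (141.4 CPM) and lowest Btbd9 (141.5 CPM) of its strain, with Dnah8 at 0.488 CPM. These are the 3 libraries that stand apart, and the r values were not computed without them.

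Other genes along the locus were used to see how far the strain steps extended. The 10 nearest protein-coding genes on each side of Glo1, with the non-coding genes among them, gave 39 genes besides the members. Of these, 18 passed the count filter (12 protein coding and 6 not) and could be tested, and 9 of them differed from C57BL/6J in 1 or more strains by at least 1.5-fold at an adjusted p under 0.05 (edgeR quasi-likelihood test, Benjamini-Hochberg over all genes), beside 35.8% of all genes. In A/J, 5 were higher and 1 lower, beside 4.49% of all genes called higher and 4.15% lower. Of these 5, AC165951.1 and AC165951.5 passed the count filter only through strains in which they were high. This count, those of 129S1/SvImJ and CAST/EiJ and the 9 of 18 therefore cannot be read against the share of all genes. AC165951.6, called lower in A/J, CAST/EiJ, NOD/ShiLtJ and PWK/PhJ, lay near the count filter in C57BL/6J. The lower counts of those strains may carry the same limit. In 129S1/SvImJ, 5 were higher and 0 lower by edgeR (3.52% and 4.38% of all genes), with 0 lower at an unadjusted p under 0.05 by edgeR, and 1 at an unadjusted p under 0.05 and 0 called by DESeq2. In CAST/EiJ, 3 were higher and 4 lower (9.29% and 10.9%). NOD/ShiLtJ had 1 higher and 3 lower (4.84% and 3.68%, 8.51% in either direction), and NZO/HlLtJ had 1 and 1 (5.13% and 3.24%, 8.38% in either). PWK/PhJ had 3 higher and 2 lower (8.24% and 11.6%, 19.8% in either), and WSB/EiJ 2 and 1 (5.75% and 6.43%, 12.2% in either). With DESeq2, the number called in either direction stayed within 1.5 times that of edgeR in every strain.

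**Figure D2:**
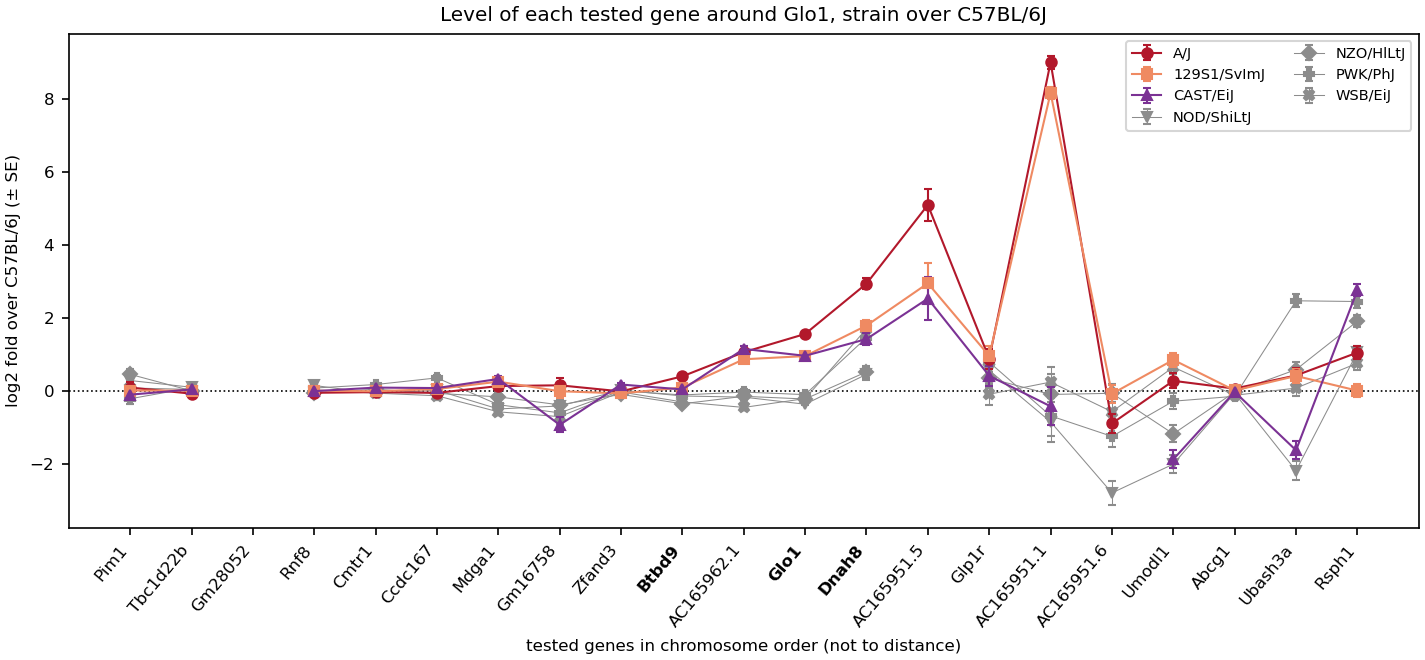
Log2 fold of each strain over C57BL/6J (vertical axis, with standard error) for the 3 members and the tested genes around them, in chromosome order and not to distance, with A/J, 129S1/SvImJ and CAST/EiJ in colour and the other strains in grey. Points are left out where a group of 4 libraries had 0 counts. From Btbd9 to Glp1r the 3 coloured strains lie above 0, with Btbd9 close to 0 in 129S1/SvImJ (0.0911) and CAST/EiJ (0.0382). Dnah8 lies above 0 in every strain. AC165951.1 reaches 9.01 in A/J and 8.17 in 129S1/SvImJ, while Zfand3 on the left stays within 1.5-fold in every strain.

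Between Btbd9 and Glo1 lies AC165962.1, a non-coding gene antisense to the start of Btbd9. It was high in the same 3 strains as Glo1. Its lowest, median and highest library had 7.49, 8.15 and 9.09 CPM in A/J, 6.2, 7.43 and 7.77 CPM in 129S1/SvImJ and 7.13, 8.74 and 10.1 CPM in CAST/EiJ. In C57BL/6J they had 3.72, 3.9 and 4.5 CPM, and the 4 other strains averaged 2.88 to 3.86 CPM. All libraries of the 3 strains lay above every C57BL/6J library.

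AC165962.1 was 2.08-fold higher in A/J (adjusted p = 1.6e-17), 1.82-fold higher in 129S1/SvImJ (3.58e-14) and 2.22-fold higher in CAST/EiJ (1.28e-19), by edgeR with Benjamini-Hochberg adjustment. Unlike Glo1, it had no further step in A/J: the A/J mean was 1.14 times that of 129S1/SvImJ and 0.938 times that of CAST/EiJ. It shares 189 exon bases, 3.0% of its own, with Btbd9 on the opposite strand. No source says whether counting was stranded, so reads of overlapping antisense genes cannot be told apart.

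AC165951.5, a long non-coding gene beyond Dnah8, was also highest in A/J. Summed over 8 libraries it had 133 counts in A/J, 31 in 129S1/SvImJ, 22 in CAST/EiJ and 3 in C57BL/6J, and it had 0 to 1 in each of the other 4 strains. All 8 libraries of these 3 strains had at least 1 count. The log2 ratio to C57BL/6J was 5.10 in A/J (adjusted p = 9.24e-12), 2.95 in 129S1/SvImJ (9.14e-05) and 2.53 in CAST/EiJ (0.000416). The gene passed the count filter only through A/J, where it had 9 to 21 counts per library, so a difference was bound to appear there. With 3 counts in C57BL/6J these ratios are imprecise (SE 0.434, 0.56 and 0.586), and in females only the 129S1/SvImJ call was lost (log2 ratio 2.18, adjusted p = 0.0614).

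The clearest strain difference at the locus was in AC165951.1, a non-coding gene antisense to Glp1r and Umodl1. It had 1137 to 1664 counts per library in A/J and 722 to 871 in 129S1/SvImJ, against 0 to 8 in C57BL/6J. The mean was 64.4 ± 5.21 CPM in A/J, 36.0 ± 1.68 CPM in 129S1/SvImJ and 0.145 ± 0.126 CPM in C57BL/6J (SD, n = 8 each). CAST/EiJ, which shared the Glo1 step with 129S1/SvImJ, had 0.0979 CPM, and the remaining 4 strains had 0.0645 to 0.143 CPM. The A/J level was 1.79 times the 129S1/SvImJ level, beside 1.52 for Glo1.

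The log2 ratio of AC165951.1 to C57BL/6J was 9.01 in A/J (adjusted p = 1.14e-44) and 8.17 in 129S1/SvImJ (2.35e-42), by edgeR with Benjamini-Hochberg adjustment. The gene passed the count filter only through these strains, so a difference was bound to appear. In GENCODE M21 its transcript has 3 exons and 4014 bases. Its exon 1 is shown because this transcript separates A/J and 129S1/SvImJ from CAST/EiJ, and it lies at chr17:30963070-30963220 on the minus strand of GRCm38, with 0 bases shared with Umodl1 exons; the sequence is 5′ to 3′ and lower case throughout, with no motif marked.
AC165951.1 exon 1: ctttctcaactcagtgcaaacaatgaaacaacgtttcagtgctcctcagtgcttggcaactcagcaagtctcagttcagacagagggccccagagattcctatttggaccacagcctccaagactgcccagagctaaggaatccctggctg
Another annotated transcript, AC174471.1, runs on the same strand across the whole locus and shares 1255 exon bases (82.1% of its own) with Btbd9 and 246 with AC165951.1. It had 10 counts summed in A/J, 9 in 129S1/SvImJ and 4 in C57BL/6J, each in 1 library, and 0 in the others.

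**Figure D3:**
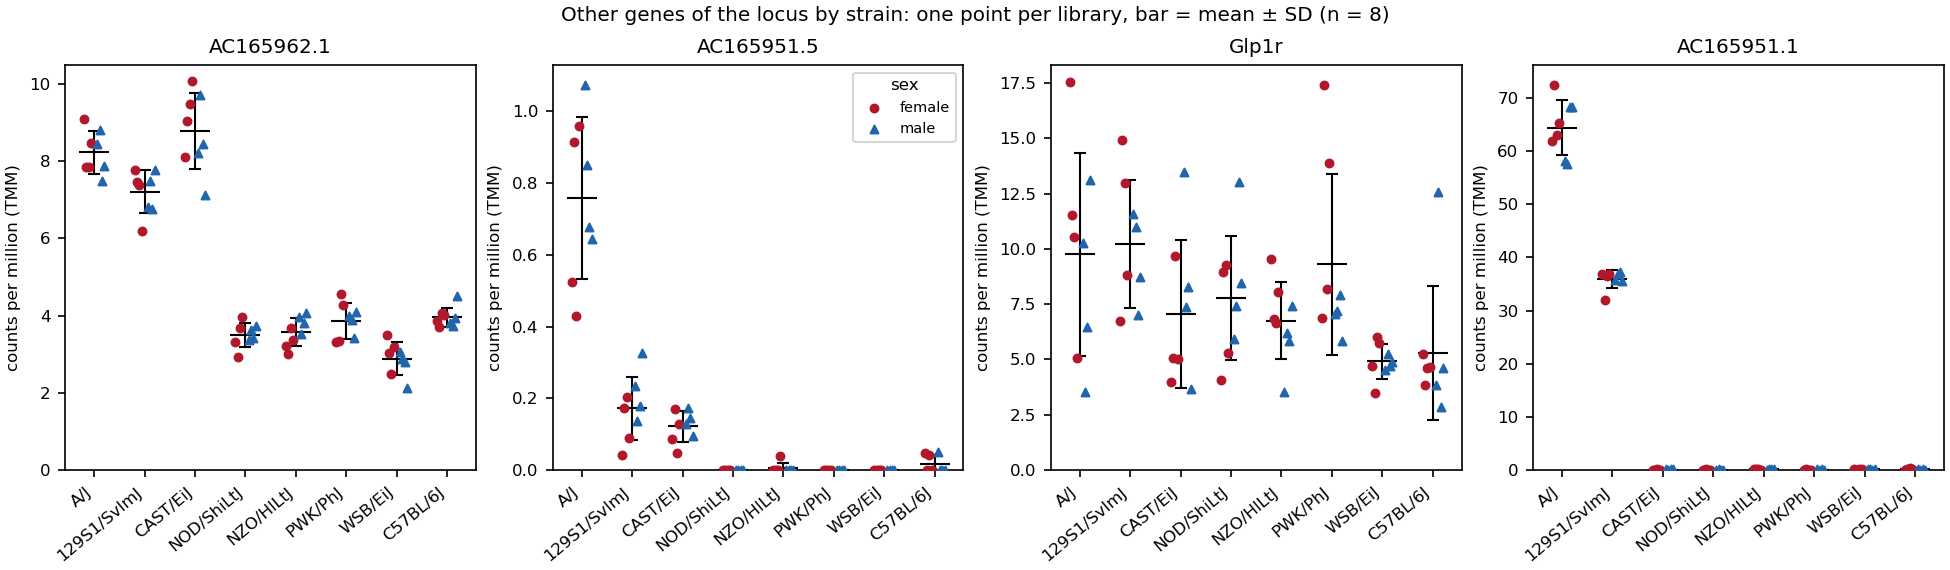
Level in CPM (vertical axes, TMM scaled) of AC165962.1, AC165951.5, Glp1r and AC165951.1 in each library, by strain, with females as red circles, males as blue triangles and bars for mean and SD (n = 8). AC165962.1 is high in A/J, 129S1/SvImJ and CAST/EiJ (6.2 to 10.1 CPM), AC165951.1 only in A/J and 129S1/SvImJ (32.1 to 72.5 CPM), and Glp1r spreads widely within strains.

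Several transcripts inside the locus were too scarce to test. AC166166.1, antisense to Dnah8, had 67 counts summed in CAST/EiJ, 27 in A/J and 9 in 129S1/SvImJ, and 0 in each of the 5 other strains. Against the 3 counts that 0 allows over 8 C57BL/6J libraries, its observed counts gave at least 22.1-fold in CAST/EiJ, 9.09-fold in A/J and 2.93-fold in 129S1/SvImJ. AC165951.2, also antisense to Dnah8, had 58 counts in CAST/EiJ, 7 in A/J, 5 in 129S1/SvImJ and 1 in C57BL/6J. These bounds cover counting error in C57BL/6J only. The count of the higher strain was taken as it stands, and its own counting error and the spread between libraries are not covered. In 129S1/SvImJ, AC166166.1 had a count in 4 of 8 libraries.

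1700097N02Rik, a non-coding gene between Glo1 and Dnah8, shares 90 exon bases with Glo1 and, on the opposite strand, 207 with Dnah8. It had 37 counts summed in A/J, 12 in PWK/PhJ, 10 in NZO/HlLtJ, 9 in WSB/EiJ, 1 in 129S1/SvImJ and 0 in CAST/EiJ, NOD/ShiLtJ and C57BL/6J. The bound in A/J, taken in the same way and with the same limits, was at least 12.5-fold. AC125544.1, which overlaps Btbd9 on the opposite strand, had 12 counts in A/J, 11 in 129S1/SvImJ and 0 in CAST/EiJ and C57BL/6J. The scarce transcripts thus did not share a single strain order.

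Glp1r, the receptor for glucagon-like peptide 1, is the next protein-coding gene past Dnah8. It averaged 9.76 ± 4.59 CPM in A/J, 10.2 ± 2.9 CPM in 129S1/SvImJ, 7.07 ± 3.35 CPM in CAST/EiJ and 5.29 ± 3.03 CPM in C57BL/6J. It was 1.84-fold higher in A/J (adjusted p = 0.0107), 1.94-fold in 129S1/SvImJ (0.00574) and 1.73-fold in PWK/PhJ (0.0133), by edgeR. The libraries overlapped widely, with 2 of 8 in each of these strains above the highest C57BL/6J library, male 2 at 12.6 CPM, and none of the 3 calls held in males only (log2 ratios of 0.479, 0.682 and 0.234 for A/J, 129S1/SvImJ and PWK/PhJ).

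On the other side of the members, Zfand3, the nearest tested gene past Btbd9, averaged 76.5 to 92.2 CPM over the 8 strains and was called in none. Farther genes differed in other strain patterns. Umodl1 was higher in 129S1/SvImJ (1.8-fold, adjusted p = 0.000769) and WSB/EiJ (1.57-fold, 0.00808) and lower in CAST/EiJ (0.272), NOD/ShiLtJ (0.248) and NZO/HlLtJ (0.44), and its WSB/EiJ call was lost in females only (adjusted p = 0.107 by edgeR) and in males only (0.0737). Ubash3a was 5.54-fold higher in PWK/PhJ and lower in CAST/EiJ (0.323) and NOD/ShiLtJ (0.22). Rsph1, which encodes a protein of ciliary radial spokes and is also an ependymal marker, was higher in every strain but 129S1/SvImJ, from 1.69-fold in WSB/EiJ to 6.78-fold in CAST/EiJ. The non-coding AC165951.6 was lower in A/J (0.538), NOD/ShiLtJ (0.143) and PWK/PhJ (0.42), and in CAST/EiJ it had 3 counts summed, against 84 in C57BL/6J. With 84 counts over 8 libraries it lay near the count filter in C57BL/6J, so its lower calls may rest on that filter. Gm16758, antisense to Mdga1, was lower in CAST/EiJ (0.524), PWK/PhJ (0.658) and WSB/EiJ (0.612). The PWK/PhJ call of Gm16758 was lost in females only, in males only, without the 3 libraries that stand apart and when any of 5 libraries was left out, the WSB/EiJ call was lost in males only, and the A/J call of AC165951.6 in females only.

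Sex was not used to choose the members and was tested. Over all strains, the log2 difference of females from males was -0.00896 for Glo1 (SE 0.0173), 0.00556 for Dnah8 (SE 0.0721) and 0.00148 for Btbd9 (SE 0.0264), each with an adjusted p of 1 by edgeR. Of all genes, 29 (0.167%) were called for sex. None of the 3 members passed the test.

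Within single strains, the smallest p for Glo1 was in 129S1/SvImJ, where females had 264.5 ± 25.4 CPM and males 243.8 ± 10.7 CPM (SD over 4 libraries each), with an edgeR adjusted p of 0.546. For Btbd9 it was in NOD/ShiLtJ, where females had 158 ± 4.14 CPM and males 139 ± 7.86 CPM, with an edgeR adjusted p of 0.277. For Dnah8 it was also in 129S1/SvImJ, with 2.39 ± 0.466 CPM in females and 3.09 ± 0.446 CPM in males, with an edgeR adjusted p of 0.575. The share of all genes called for sex was 0.0633% in 129S1/SvImJ, 0.708% in NOD/ShiLtJ, 0.092% in A/J, 0.104% in CAST/EiJ and 0.0575% each in NZO/HlLtJ, PWK/PhJ, WSB/EiJ and C57BL/6J. The interaction of strain and sex, which asks whether the sex difference varied among strains, gave adjusted p-values of 0.498 for Glo1, 0.514 for Dnah8 and 0.612 for Btbd9 (edgeR, 0.046% of all genes called). In CAST/EiJ the female libraries carry title numbers 639 to 643 and all other libraries 311 to 462, so sex and number block cannot be told apart in that strain.

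**Figure D4:**
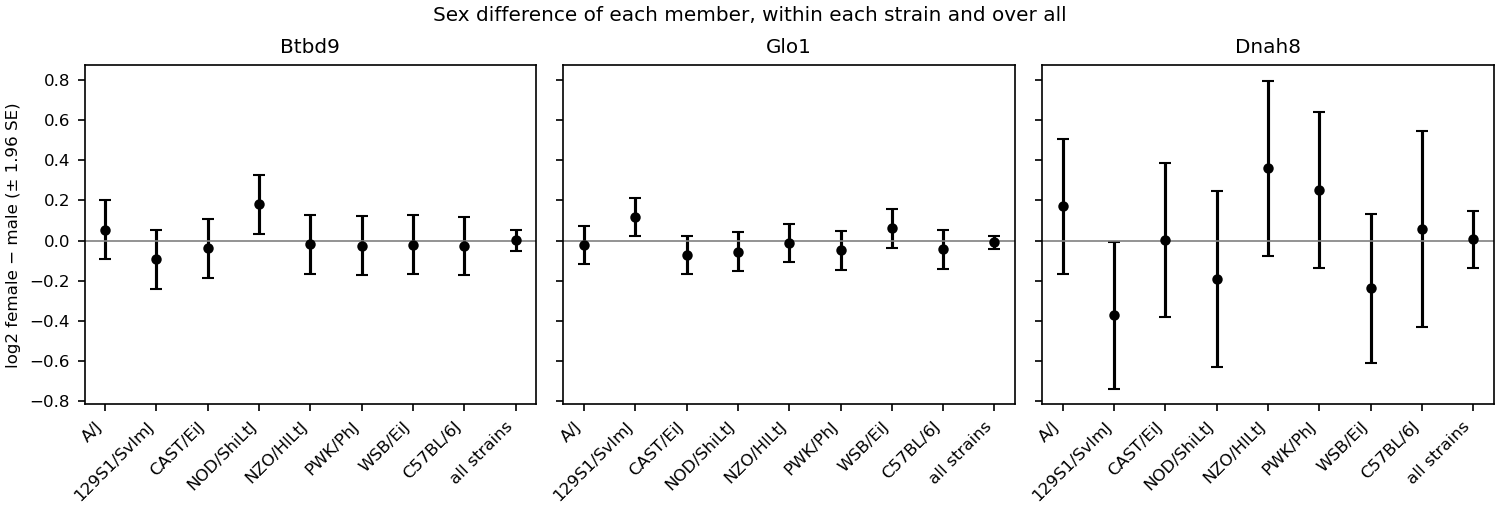
Log2 difference of females from males (vertical axis, bars for the 95% interval) for Btbd9, Glo1 and Dnah8 within each strain (4 libraries per sex) and over all strains. The estimates over all strains lie between -0.00896 and 0.00556, and the within-strain bars are widest for Dnah8, which has the fewest counts.

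The rest of the pathway was described from lists of enzymes and receptors. Among 18 tested genes of dicarbonyl clearance besides Glo1, 7 were called in 1 or more strains, beside 35.8% of all genes called in any strain. Hagh, which acts directly after Glo1, averaged 56.97 ± 8.06 CPM in A/J, 57.8 ± 5.33 CPM in 129S1/SvImJ, 60.6 ± 5.3 CPM in CAST/EiJ and 67.1 ± 5.81 CPM in C57BL/6J. Its ratio to C57BL/6J was between 0.81 in NZO/HlLtJ and 0.993 in PWK/PhJ, so it passed the 1.5-fold limit in no strain. The absence of a call rests on that limit. By edgeR the adjusted p of Hagh was 0.00125 in A/J, 0.00397 in 129S1/SvImJ and 0.0302 in CAST/EiJ. It was 0.00116 in NOD/ShiLtJ, 3.67e-05 in NZO/HlLtJ, 0.892 in PWK/PhJ and 0.796 in WSB/EiJ. Hagh, Ldhd, Park7, Akr1a1, Akr1b3 and Glod4 were named for their place in the pathway and not for their calls.

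Park7, known as a deglycase, Akr1a1 and Akr1b3, reductases of methylglyoxal, were within 1.5-fold of C57BL/6J in all 7 strains. Park7 and Akr1b3 had an edgeR adjusted p under 0.05 in NOD/ShiLtJ and NZO/HlLtJ, at ratios of 0.84 to 0.887. Ldhd, which oxidises D-lactate, had ratios from 0.825 in CAST/EiJ (edgeR adjusted p = 0.0093) to 1.38 in A/J (4.51e-05). It passed the 1.5-fold limit in none. Glod4, a protein with glyoxalase-like domains, was lower in PWK/PhJ (0.61, adjusted p = 4.59e-19 by edgeR) and had a ratio of 0.957 in A/J. In CAST/EiJ its ratio was 0.693 (adjusted p = 2.77e-14 by edgeR), short of the 1.5-fold limit.

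The aldehyde dehydrogenases and reductases that were called were mostly lower than in C57BL/6J. Aldh7a1 fell in all 7 strains, to 42.1 ± 1.48 CPM in A/J, 44.6 ± 2.19 CPM in 129S1/SvImJ and 33.1 ± 2.87 CPM in PWK/PhJ, against 79.1 ± 3.8 CPM in C57BL/6J. Aldh1a1 was lower in 6 strains, from a ratio of 0.285 in WSB/EiJ to 0.663 in A/J, where the fold was close to the limit and the call was lost when any of 6 libraries was left out. Akr1e1 was lower in 5 strains, with 5.32 ± 0.972 CPM in NOD/ShiLtJ and 23.7 ± 1.47 CPM in C57BL/6J. Akr1b8 was higher in PWK/PhJ (2.71-fold) and NZO/HlLtJ (1.57-fold) and lower in WSB/EiJ (0.398). Its NZO/HlLtJ call was lost in females only, in males only and when any of 5 libraries was left out.

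**Figure D5:**
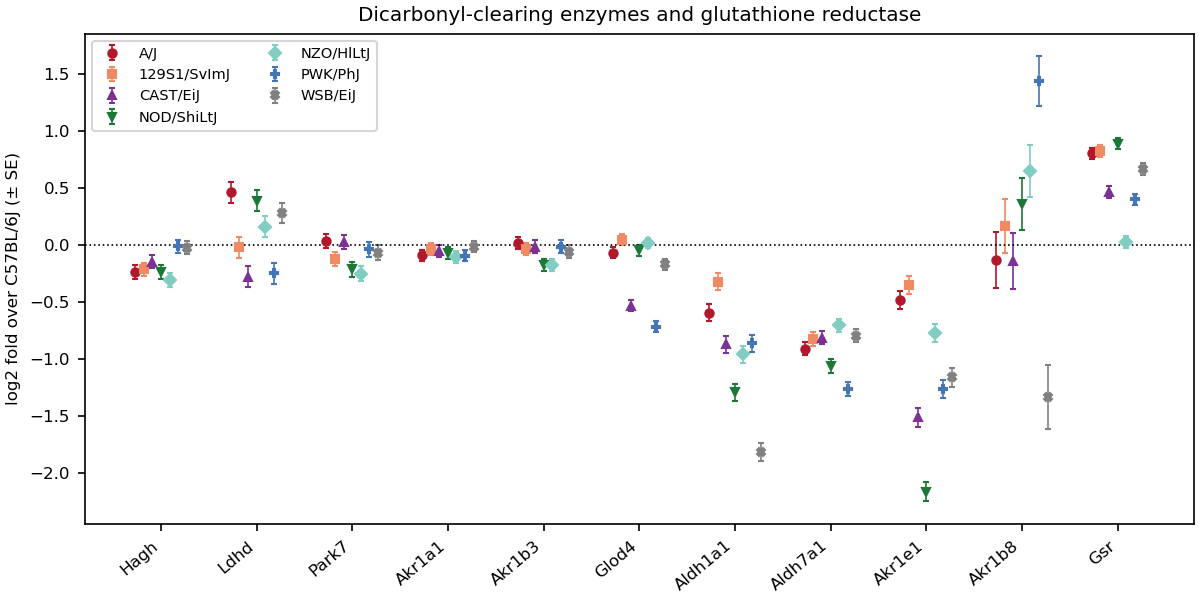
Log2 fold over C57BL/6J (vertical axis, with standard error) of 10 dicarbonyl-clearing enzymes and of Gsr, glutathione reductase, in the 7 other strains. Hagh, Park7, Akr1a1 and Akr1b3 lie within 1.5-fold of C57BL/6J in all strains, with Hagh as low as -0.304 in NZO/HlLtJ. Aldh7a1 lies below 0 in all 7, and Akr1b8 runs from -1.33 in WSB/EiJ to 1.44 in PWK/PhJ.

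Glyoxalase 1 depends on glutathione, and 2 of 9 tested genes of glutathione supply were called, beside 35.8% of all genes. Gsr, which regenerates reduced glutathione, was higher in A/J (1.75-fold), 129S1/SvImJ (1.78-fold), NOD/ShiLtJ (1.85-fold) and WSB/EiJ (1.59-fold), with adjusted p of 1.1e-16 or less by edgeR. Slc7a11, the cystine transporter, was lower in WSB/EiJ (0.478). Of 11 tested genes whose products form or feed methylglyoxal, 1 was called, again beside 35.8% of all genes. This was Aoc2, with 2.84 ± 0.43 CPM in A/J, 4.13 ± 1.05 CPM in CAST/EiJ and 1.87 ± 0.274 CPM in C57BL/6J. Its A/J call (1.51-fold) was lost in males only, without the 3 libraries that stand apart and when any of 5 libraries was left out. Of 7 tested receptors for glycation products, 5 were called, in differing strains, beside 35.8% of all genes. Stab1 was lower in A/J (0.628), 129S1/SvImJ (0.558) and PWK/PhJ (0.587). Cd36 was higher in CAST/EiJ (2.24-fold), NOD/ShiLtJ (1.78-fold) and NZO/HlLtJ (1.95-fold). Lgals3 was lower in PWK/PhJ (0.096) and higher in 129S1/SvImJ (1.77-fold), NOD/ShiLtJ (1.86-fold) and WSB/EiJ (2.06-fold). Ager was lower in CAST/EiJ (0.343), and Stab2 in CAST/EiJ (0.493) and PWK/PhJ (0.523). In females only, the calls of Cd36 in NOD/ShiLtJ, Lgals3 in 129S1/SvImJ, Ager in CAST/EiJ and Stab2 in PWK/PhJ were lost, and in males only those of Lgals3 in 129S1/SvImJ and NOD/ShiLtJ.

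Of 16 tested axonemal dynein genes besides Dnah8, 12 were called in 1 or more strains, beside 35.8% of all genes. In A/J, Dnah14 was higher (4.55-fold), as were Dnah6 (3.14-fold) and Dnah3 (1.79-fold), and Dnah7b was lower (0.612); the Dnah3 call was lost when any of 7 libraries was left out, and the Dnah3 and Dnah7b calls in females only and in males only. The median log2 ratio of the list ran from 0.104 in CAST/EiJ to 0.573 in WSB/EiJ. Dnah7a, Dnah7b and Dnah7c are close paralogs whose reads may be split differently in each strain, and they are uncertain. Of 6 tested ependymal markers, 5 were called in 1 or more strains, and of 8 choroid plexus markers 1 was called, Kl, lower in PWK/PhJ (0.273). The Kl call was lost in females only (log2 ratio -1.18, adjusted p = 0.264 by edgeR), and the choroid plexus count was 0 in females only, 2 by DESeq2, and 2 without C57BL/6J female 3, male 1 or male 3.

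Of 15 tested genes of Cullin-3 and its adaptors, the partners of Btbd9, 0 were called in any strain by edgeR or DESeq2, beside 35.8% of all genes, and 13 had an unadjusted edgeR p under 0.05 in 1 or more strains. This count of 0 rests on the 1.5-fold minimum: with no fold minimum 12 of the 15 were called, beside 86.7% of all genes. Of 4 tested genes at other restless legs loci, 0 were called by either tool and 3 had such an unadjusted p. With no count filter, 1 of the 5 listed genes was called. With no fold minimum 2 of the 4 were called, and 2 by the F test over the 8 strains with a range of at least 1.5-fold (44.7% of all genes). Of 10 hippocampus markers, 5 were called, beside 35.8% of all genes. C1ql2, a dentate granule cell marker, was lower in all 7 strains, and Iyd was lower in 5. Wfs1 was higher in 129S1/SvImJ (1.66-fold), CAST/EiJ (3.28-fold), NOD/ShiLtJ (1.79-fold), PWK/PhJ (2.11-fold) and WSB/EiJ (1.94-fold). Lct was higher in CAST/EiJ (2.77-fold) and PWK/PhJ (1.92-fold) and lower in A/J (0.625), NOD/ShiLtJ (0.489) and WSB/EiJ (0.637). Its A/J and WSB/EiJ calls were lost in females only. Spink8 was higher in CAST/EiJ (1.93-fold) and lower in 129S1/SvImJ (0.364).

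Genes whose level most resembled that of Glo1 across the 8 strain means were ranked by Pearson r of log2 CPM. The highest were AC165951.5 (r = 0.958) and AC165962.1 (r = 0.948), both at the locus described above, followed by Fam118b on chromosome 9 (0.944), Banp on chromosome 8 (0.915) and Erlin1 on chromosome 19 (0.904). The range of the strain means on the log2 scale was 3.19 for AC165951.5, 1.58 for AC165962.1, 0.751 for Banp, 0.318 for Fam118b and 0.125 for Erlin1, beside 0.753 for Btbd9. Banp had 31.4 ± 2.08 CPM in A/J and 21.6 ± 2.09 CPM in C57BL/6J, and Fam118b had 17.02 ± 1.19 CPM in A/J and 15.3 ± 1.48 CPM in C57BL/6J. Among the most opposite were Ldoc1 (-0.921) and Epas1 (-0.918). With 8 strain means shared by all 17382 genes, such values are a description.

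Over the deviations of the 64 libraries from their group means, other genes came first. The highest were Slc25a5 (0.798), Uqcrb (0.796), Mrfap1 (0.793), Phyh (0.791) and Glrx3 (0.79), and Slc25a5 and Uqcrb encode mitochondrial inner membrane proteins. These genes followed Glo1 from library to library within a group and not between strains, with r between -0.162 and 0.34 over the 8 strain means. The 3 libraries that stand apart each had the highest Glo1 of their strain. They were 129S1/SvImJ female 1 (300.3 CPM), A/J male 2 (413.9 CPM) and C57BL/6J male 4 (141.4 CPM). The r values within groups were not computed without them and may rest on them. The choroid plexus sum spanned 28.7 to 3131 CPM among A/J libraries, whose Glo1 spanned 373.7 to 413.9 CPM.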

How the data were processed

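Total RNA of 64 hippocampus samples was isolated with a TRIzol Plus kit and made into libraries with a TruSeq kit, per the labels' protocols. The authors deposited raw counts per gene, on build GRCm39 per the submitters' processing notes and Ensembl release 105 per the name of the deposited table. For the aligner, the counter, the strand setting and the genome used for each strain, nothing is given in the sources used here. A total of 50 columns equalled the start of a sample title, and 14 had 1 digit fewer; 0 per-sample columns were left unused. Strain names are written with a slash where some labels use another character.

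Of 32227 identifiers, 32095 (99.6%) were named from GENCODE M21, used only for names, order and overlaps of genes. Genes were kept by filterByExpr (minimum count 10, minimum total 15), leaving 17382, and fitted with edgeR 4.0.16 in R 4.3.3 (TMM, 16 group means, robust quasi-likelihood, 48 residual degrees of freedom, all 64 libraries). Strain tests required an adjusted p under 0.05 (Benjamini-Hochberg over all genes) and 1.5-fold. Members gave strain ratios with 95% intervals, with no test. The scripts were tested on simulated data. DESeq2 1.42.0 was an alternative. No replicate pair agreed within sampling noise, the smallest chi-square per degree of freedom being 2.86 over 96 pairs.

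Members, the 10 gene lists and the tests were chosen with earlier results of these data known. Genes named were the members, window genes called in any strain with the nearest tested on each side, up to 4 called genes per list with the widest range and those called in A/J, and the genes most like Glo1. Scarce transcripts and the core enzymes were named after their values were seen. A gene that the rule would also have named is not reported here.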

Additional observations from a re-analysis of the deposited data

Results flagged for a closer look

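Groups of 4 libraries were screened for a library far from the others in 6 genes of the locus, 96 groups in all, of which 2 stood out where chance gives about 4.8 (1 in 20). AC165951.1 in 129S1/SvImJ female 2 was 32.1 CPM (746 counts), against 36.5 to 36.8 CPM in the other 3 females of that strain. AC165951.1 in NOD/ShiLtJ male 2 was 0.111 CPM (3 counts), against 0.0392 to 0.0412 CPM in the other 3 males.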

How the results depend on the processing

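Glo1, Dnah8 and Btbd9 ratios to C57BL/6J kept their direction with each library left out. Over the alternative runs they moved beyond the spread between libraries only for Glo1 in 129S1/SvImJ, with a log2 ratio of 1.03 in females only and 0.872 in males only. The cause was not tested. Smaller moves were not checked for a change of sign. The direction of Btbd9 in CAST/EiJ is uncertain, with log2 ratios of 0.00485 to 0.0585 with each library left out. Counts of other locus genes called changed with the fold minimum. With 2-fold they were 2 in 129S1/SvImJ, 3 in PWK/PhJ and 0 in WSB/EiJ, and with no minimum 7 in NOD/ShiLtJ, 5 in NZO/HlLtJ, 10 in PWK/PhJ and 5 in WSB/EiJ. With no count filter they were 11 in CAST/EiJ and 4 in NZO/HlLtJ, and with males only 3 in PWK/PhJ. For WSB/EiJ they were 5 without A/J male 2, 129S1/SvImJ female 1 and C57BL/6J male 4, and 3 to 5 with each library left out, 5 without C57BL/6J female 4 or WSB/EiJ female 4. List genes called with a 2-fold minimum numbered 4 in 129S1/SvImJ, 5 in A/J, 8 in NOD/ShiLtJ, 5 in NZO/HlLtJ, 14 in PWK/PhJ and 10 in WSB/EiJ, and with no minimum 20, 27, 37, 27, 54 and 52 in those strains and 49 in CAST/EiJ. List genes called in any strain with no fold minimum numbered 16 of 18 for dicarbonyl clearance, 8 of 9 for glutathione supply, 7 of 11 for methylglyoxal sources and 9 of 10 for hippocampus markers, beside 86.7% of all genes. With a 2-fold minimum they were 4 of 18 for dicarbonyl clearance, 1 of 9 for glutathione supply and 3 of 6 for ependymal markers. Methylglyoxal sources gave 2 without C57BL/6J male 2. The share of all genes is not given for a 2-fold minimum, nor by strain with no minimum. Nothing is read from those counts beyond their change with the limit. Sex differences near 0 changed sign: without those 3 libraries Btbd9 was -0.00362 and Dnah8 -0.0087, Dnah8 was -0.00216 in an additive model, and with each library left out Btbd9 ran from -0.00687 to 0.0109 and Dnah8 from -0.0177 to 0.0304, with an adjusted p of 1 throughout. No paired analysis was possible because replicate numbers follow deposition order and pair no libraries. Precision is limited for Dnah8 by its 9 to 156 counts per library and for the scarce transcripts by their counts near 0.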
